A study of Saccharomyces cerevisiae with 12 samples.

Results

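Ribosome biogenesis factors are the proteins that turn the long precursor of ribosomal RNA into the small and large ribosomal subunits and are absent from the finished ribosome. The genes described here are those whose symbol is UTP, NOP, NOC, RRP, RLP or ENP followed by a number, together with DBP3, DBP4, DBP6, DBP7, DBP8, DBP9, DBP10, MPP10, IMP3, IMP4, SOF1, RRS1 and RRB1. The rule used names only and no measured value. It matched 73 genes of budding yeast, and 72 of the 5656 genes with a probe set of their own on the array were members. NOP10 had no such probe set and was not analysed here.

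RNA was measured on 12 arrays, 3 for each of 4 groups of Saccharomyces cerevisiae that the labels call biological replicates. The first pair of groups held ρ+ cells, which carry mitochondrial DNA, and the second pair held ρ0 cells, which lack it. All cultures were grown at 22 °C to early log phase in complete medium with 2% glucose. One part of each culture was harvested there (ρ+ glucose and ρ0 glucose), and the other part was spun down, washed and shaken for 4 h in the medium without glucose (ρ+ no glucose and ρ0 no glucose). The loss of glucose and the washing and further shaking therefore cannot be told apart. No source used here gives the strain background or the way the ρ0 cells were made.

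In the nucleolus, the U3 small nucleolar ribonucleoprotein and the UTP-A, UTP-B and UTP-C subcomplexes assemble on the nascent precursor into the small-subunit processome, in which the first cleavages are made. Large-subunit factors, many of them DEAD-box RNA helicases, fold and trim the rest of the transcript, and the RNA exosome removes spacer sequence and shortens 3′ ends. In yeast these genes form a regulon that is known to follow nutrient supply through the TOR and protein kinase A pathways, with Sfp1 as an activator and Stb3, Dot6 and Tod6 as repressors.

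OLI1, a gene of mitochondrial DNA, read between 100 and 159 signal units on the 6 ρ+ arrays and between 0.196 and 0.435 on the 6 ρ0 arrays, so each array matched the strain in its label. Signals are MAS5 intensities in arbitrary units that the authors scaled per array. Member signals ran from 5.07 to 1320, and 71 of the 72 members lay above the detection level of 5.82, the 25th percentile of all signals, on every array. The exception was RRP36, whose lowest array read 5.07. All 72 members were among the 5361 genes tested. The median coefficient of variation of a member within a group was 15.8%. The arrays differed in other ways. The mean log2 signal of 10 ribosomal RNA control probe sets ran from 7.08 to 7.60 and from 7.14 to 7.91 in the ρ+ and ρ0 glucose groups, and from 8.50 to 8.71 and from 7.82 to 8.86 without glucose. The 5′ to 3′ ratio of the SPT15 control, a measure of RNA or cDNA length, was 0.239 to 0.368 in ρ+ glucose and 0.182 to 0.194 in ρ+ no glucose, and it was 0.130 to 0.390 and 0.106 to 0.187 in the matching ρ0 groups. Both measures moved with glucose, and their part in the results was not tested. On ρ0 glucose replicate 2 and ρ0 no glucose replicate 1 the hybridization control CreX read 309 and 509, against 624 to 1006 on the other arrays. Among the ρ0 no glucose arrays, replicate 3 stood apart in the members: their median deviation from the gene means exceeded that of all genes by 0.34 there, against 0.10 and −0.03 on replicates 1 and 2. Since signals are scaled per array, a value is a share of the polyadenylated RNA and not an amount per cell.

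**Figure D1:**
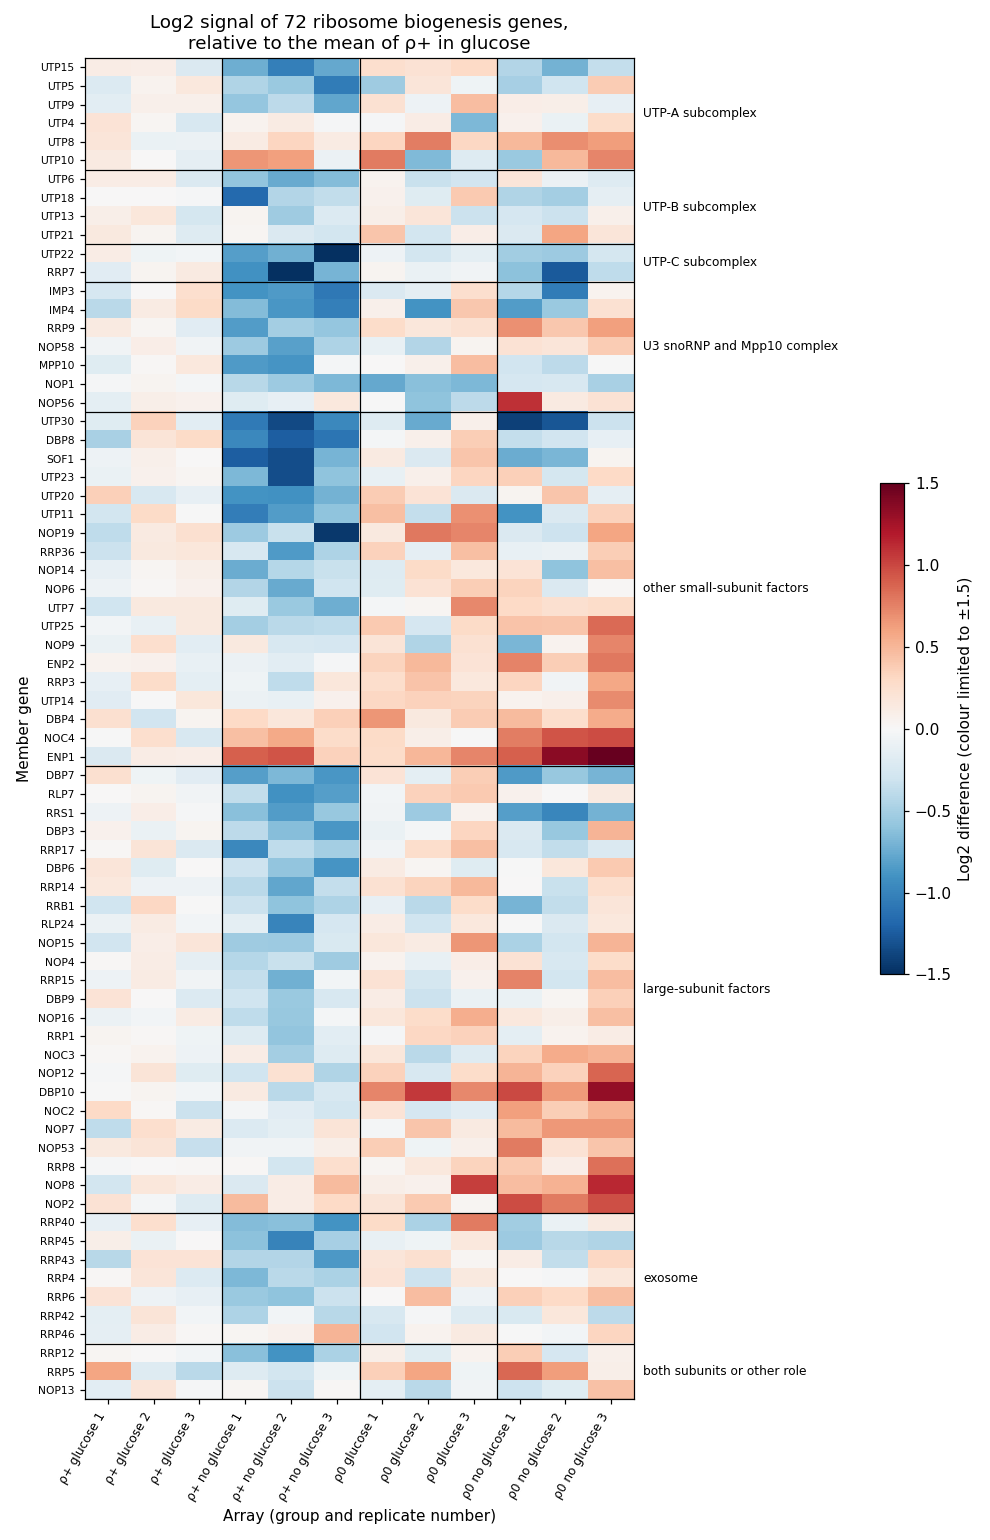
Each row is 1 of the 72 members, ordered by role, each column is 1 of the 12 arrays, and colour shows the log2 signal minus the gene's mean over the 3 ρ+ glucose arrays. Most rows are below that mean on the ρ+ no glucose arrays, and the ρ0 no glucose arrays show no such common fall.

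Glucose withdrawal in ρ+ cells was compared first, to ask how these genes respond when cells with mitochondrial DNA lose glucose. Ribosome biogenesis factors were lower: 29 of 72 fell, or 40.3%, and 1 rose. The shares among all genes tested were 22.3% lower and 10.5% higher (limma, adjusted p below 0.05 over all genes). The median member changed by −0.49 on the log2 scale, against −0.19 for all genes, and 63 members had a negative value and 9 a positive one, where 63.9% and 36.1% of all genes did. In 39 members every array without glucose lay below every glucose array, and in 2 every one lay above, shares that were 35.1% and 16.5% among all genes. Falls were moderate in size, with 5 members at least 2-fold lower: UTP22, UTP30, DBP8, SOF1 and RRP7.

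Counts by role cover only members, and other genes of these complexes lie outside the name rule. Both members in the UTP-C list, a subcomplex of the processome, fell (100%, against 22.3% of all genes). UTP22 read 67.7, 59.8 and 60.5 in glucose and 34.6, 37.4 and 11.4 without. The groups did not overlap, but the third array without glucose was far below the other two. The fall was 2.44-fold (log2 −1.29 ± 0.30, SE, adjusted p = 0.00503), and without that array it was −0.77 on the log2 scale (adjusted p = 0.00675). The mean of its 6 probe sets gave −0.83 (adjusted p = 0.00654). RRP7, the partner of UTP22 in UTP-C, read 28.9, 33.6 and 35.9 in glucose and 16.7, 10.4 and 19.5 without. It fell 2.06-fold (log2 −1.04 ± 0.24, adjusted p = 0.00429).

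UTP-A, which binds the start of the precursor and also acts in its transcription, had 3 of 6 members lower (50.0%, against 22.3% of all genes). UTP15 read 29.2, 29.0 and 22.9 in glucose and 15.6, 12.5 and 15.2 without, a fall of 1.79-fold (adjusted p = 0.00218). UTP5 and UTP9 fell by 0.69 and 0.58 on the log2 scale. UTP4, UTP8 and UTP10 had values of 0.05, 0.19 and 0.39 and were not called. Differences between the members of the subcomplex were not tested. In UTP-B, which joins the processome after UTP-A, UTP6 (1.59-fold) and UTP18 (1.58-fold) fell and UTP13 and UTP21 were not called. The UTP18 change was −0.40 with an adjusted p of 0.161 without ρ+ no glucose replicate 1.

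Among the 7 members that belong to the U3 particle or the Mpp10 complex, 5 fell (71.4%, against 22.3% of all genes). IMP3, which helps U3 pair with the precursor, read 33.8, 40.6 and 48.3 in glucose and 21.0, 21.8 and 18.4 without (1.92-fold, adjusted p = 0.00815). IMP4, its partner in the Mpp10 complex, fell 1.81-fold at an adjusted p of 0.0496, while MPP10 itself had a value of −0.59 (adjusted p = 0.0576). The box C/D proteins NOP58 and NOP1 and the U3 protein RRP9 fell 1.52-, 1.46- and 1.56-fold. Their arrays are given below, where the strains are compared. NOP56, which pairs with NOP58 on the guide RNA, did not follow: it read 122, 144 and 142 in glucose and 119, 125 and 151 without, a change of −0.05 (adjusted p = 0.89).

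Of 19 other small-subunit factors, 6 fell (31.6%, against 22.3% of all genes) and 1 rose (5.26%, against 10.5%). SOF1, a processome protein, read 53.9, 60.2 and 57.2 in glucose and 23.4, 21.9 and 34.6 without (2.12-fold, adjusted p = 0.00295). DBP8, a DEAD-box helicase, read 29.9, 49.1 and 52.5 in glucose and 21.1, 17.2 and 19.1 without (2.14-fold, adjusted p = 0.00108). In both genes the groups were separate, and DBP8 had the smallest adjusted p of all members in this comparison. UTP30 fell 2.18-fold, UTP23, which helps release the snR30 RNA, 1.82-fold, and UTP20 1.79-fold. ENP1, needed for export and late maturation of the small subunit, went the other way: it read 26.4, 33.6 and 33.4 in glucose and 59.2, 60.8 and 39.9 without. This was a rise of 1.66-fold (log2 0.73 ± 0.23, adjusted p = 0.0265), and the call was lost when any 1 of 5 arrays of these groups was left out (adjusted p up to 0.0945).

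Large-subunit factors had 6 of 24 members lower, 25% against the 22.3% of all genes. DBP7, a helicase, read 24.2, 19.4 and 17.9 in glucose and 10.8, 12.2 and 10.5 without (1.73-fold, adjusted p = 0.00618). RLP7, which binds near the second internal spacer, read 68.8, 70.6 and 66.0 in glucose and 52.6, 35.8 and 37.9 without (1.63-fold, adjusted p = 0.0081). RRS1, which brings 5S ribosomal RNA into the precursor, fell 1.60-fold, and RRP17, DBP6 and RRP14 fell 1.54-, 1.51- and 1.42-fold. Of the 7 exosome genes among the members, 4 fell (57.1%, against 22.3% of all genes). RRP45, a ring subunit, was 1.63-fold lower (96.4, 84.3 and 91.1 against 58.6, 44.5 and 63.4, adjusted p = 0.00562). RRP12, which acts in export of both subunits, fell 1.59-fold, whereas RRP5, required for both subunits, had a value of −0.18.

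**Figure D2:**
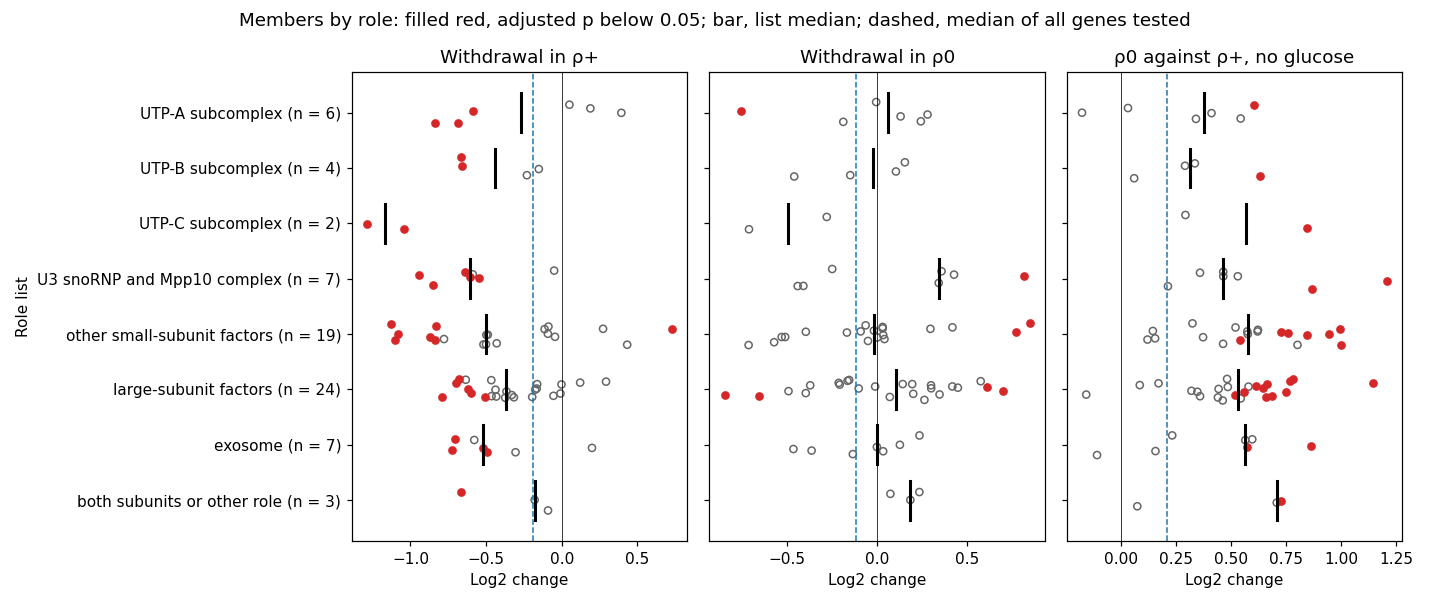
Points are members in 8 role lists, placed by log2 change in 3 comparisons, with red points past the threshold, a black bar at the list's median and a dashed line at the median of all genes tested. In ρ+ cells all 8 bars but that of the 3 genes with a role in both subunits or another role lie left of the dashed line, and in the comparison of strains without glucose all 8 lie right of it.

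Of the 29 falls, 15 held when any 1 array was left out (DBP7, DBP8, IMP3, NOP1, NOP58, RLP7, RRP45, RRP7, RRP9, SOF1, UTP15, UTP20, UTP22, UTP23 and UTP30). The counts depended on how arrays were scaled. With quantile normalization 14 fell (19.4%, against 14.2% of all genes) and 2 rose. With each array centred on its median 10 fell (13.9%, against 10.2%) and 2 rose. After scaling to 8 poly-A control probe sets 4 fell (5.56%, against 5.35%) and 0 rose, so the share that fell was close to that of all genes. The mean log2 signal of these control probe sets ran from 4.65 to 5.35 among the ρ+ glucose arrays alone. Under each scaling the share that rose was below that of all genes. DBP8, RRP7, SOF1 and UTP22 were lower under each of these scalings. Relative to the median of all genes, members shifted by −0.31 as deposited and by −0.24 after quantile normalization. Centring on the median and scaling to the poly-A controls add a constant per array and cannot change this relative value.

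Glucose withdrawal was then compared in ρ0 cells. Of the 72 members 3 fell (4.17%, against 12.4% of all genes tested) and 5 rose (6.94%, against 4.59%). These counts rest on single arrays and on the scaling. Without ρ0 no glucose replicate 3, 8 fell (11.1%, against 13.8% of all genes) and 3 rose (4.17%, against 5.06%). Without ρ0 glucose replicate 2, 6 fell (8.33%, against 14.3%) and 3 rose (4.17%, against 6.62%). With median centring 10 rose (13.9%, against 8.28%), with quantile normalization 8 (11.1%, against 6.53%), and on the poly-A scale 0 (1.14% of all genes). The median member changed by 0.02, against −0.11 for all genes, and values ran from −0.85 to 0.85. The sign of that median is not settled: it was −0.05 without ρ0 no glucose replicate 3, −0.05 without ρ0 glucose replicate 2 and 0.08 without ρ0 no glucose replicate 2. Of the 72, 37 had a positive value and 35 a negative one, where 40.5% and 59.5% of all genes did. The arrays without glucose lay wholly above the glucose arrays in 11 members and wholly below in 8, against 9.44% and 21.2% of all genes. The genes that fell were UTP15, DBP7 and RRS1, all of which also fell in ρ+ cells. Those that rose were ENP1, NOP56, NOC4, NOP2 and NOC3.

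UTP15 read 32.3, 31.6 and 33.4 in glucose and 19.5, 15.9 and 20.7 without (1.69-fold, adjusted p = 0.00864). DBP7 read 23.7, 18.3 and 26.8 in glucose and 10.7, 13.2 and 12.01 without (1.80-fold, adjusted p = 0.00818). The responses of the strains differed by 0.08 ± 0.25 in UTP15 and by −0.06 ± 0.27 in DBP7 (SE, adjusted p = 0.871 and 0.924). RRS1 read 29.2, 20.3 and 31.6 in glucose and 16.5, 14.7 and 18.0 without (1.58-fold, adjusted p = 0.025), and this call was lost without ρ0 glucose replicates 1 or 3 or ρ0 no glucose replicates 1 or 2 (adjusted p up to 0.117).

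NOC4, which works with NOP14 in the nuclear maturation of the small subunit, read 42.7, 37.0 and 34.5 in glucose and 60.1, 68.5 and 69.9 without. It rose 1.71-fold (log2 0.78 ± 0.17, adjusted p = 0.00743), the only rise in ρ0 cells to hold without any single array. ENP1 read 37.7, 44.5 and 52.6 in glucose and 58.9, 81.7 and 112 without (1.80-fold, adjusted p = 0.0211). It is the member that rose in both strains, although its call in ρ0 cells was lost when ρ0 glucose replicate 1 or either of ρ0 no glucose replicates 2 and 3 was left out (adjusted p up to 0.0748). NOP2, a methyltransferase of the large-subunit RNA, read 66.1, 75.7 and 58.9 in glucose and 114, 99.8 and 114 without (1.62-fold, adjusted p = 0.0124). Its call was lost without ρ0 glucose replicate 3 (adjusted p = 0.0606). NOP56 read 135, 89.0 and 103 in glucose and 290, 150 and 157 without (1.76-fold, adjusted p = 0.0265). The highest of these arrays was ρ0 no glucose replicate 1, one of those with low hybridization controls, and without it the change was 0.51 (adjusted p = 0.127). NOC3, which acts early in large-subunit export, rose 1.53-fold at an adjusted p of 0.0484 and was past the threshold under 10 of 24 alternatives.

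Members that fell most in ρ+ cells had negative but uncalled values in ρ0 cells. RRP7 changed by −0.71 (adjusted p = 0.0525), UTP30 by −0.71 (adjusted p = 0.0893), SOF1 by −0.57 (adjusted p = 0.105), IMP3 by −0.44 (adjusted p = 0.223) and DBP8 by −0.40 (adjusted p = 0.2). Across the 72 members the Pearson correlation of the changes in ρ+ and in ρ0 cells was 0.72, and it was 0.45 across all genes tested; the points come from the same 12 arrays and are genes, not independent replicates. By sign, 35 members were lower in both strains, 28 were lower in ρ+ and higher in ρ0, 9 were higher in both, and 0 were higher in ρ+ and lower in ρ0. With 10 members past an unadjusted p of 0.05 in the upward direction and 8 in the downward, where 9.77% and 22.2% of all genes passed it, the values in ρ0 cells ran both ways.

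**Figure D3:**
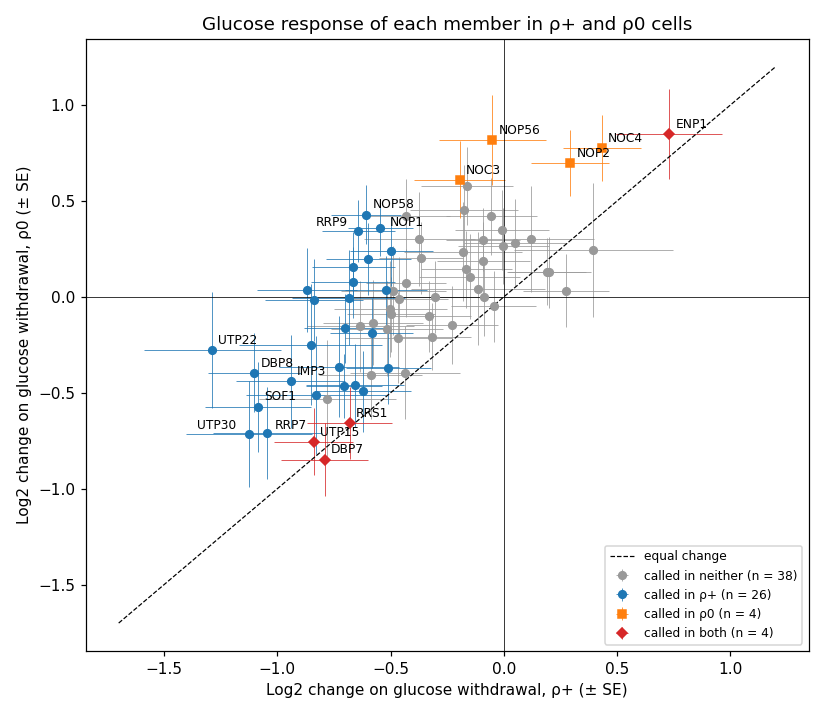
Each point is a member, placed by its log2 change on glucose withdrawal in ρ+ cells (horizontal) and ρ0 cells (vertical), with SE bars and the line of equal change dashed. Points lie mostly above the line, with UTP15, DBP7 and RRS1 near it at the lower left and NOP58, RRP9 and NOP1 above it.

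The difference of the responses, ρ0 minus ρ+, was tested directly. Of the 72 members 3 were called, all with the higher value in ρ0 (4.17%, against 1.57% of all genes higher and 5.35% lower), and 0 were lower; at an unadjusted p under 0.05 there were 17 and 0, where 10.9% and 11.7% of all genes passed. The median difference was 0.39, against 0.09 for all genes, with a median SE of 0.29. Without ρ0 no glucose replicate 3 it was 0.26, and the excess over all genes was 0.19 in place of 0.30. It was positive in 66 members and negative in 6, where 56.7% and 43.3% of all genes were. The called genes were NOP58, RRP9 and NOP1, each of which belongs to the U3 particle: NOP58 and the methyltransferase NOP1 (fibrillarin) are core proteins of all box C/D particles, and RRP9 is specific to U3.

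RRP9 read 57.0, 52.7 and 45.7 in ρ+ glucose and 28.3, 35.7 and 34.1 in ρ+ no glucose. In ρ0 cells it read 62.6, 58.1 and 60.7 in glucose and 83.5, 68.9 and 79.6 without. Its lowest arrays were thus the ρ+ no glucose arrays and its highest the ρ0 no glucose arrays, with no overlap between any of these groups and the glucose groups. It fell in ρ+ cells (log2 −0.64 ± 0.16, adjusted p = 0.00745), had a value of 0.34 in ρ0 cells (adjusted p = 0.156), and differed between the responses by 0.99 ± 0.23 (adjusted p = 0.0152).

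NOP58, the brightest member, read 975, 1089 and 981 in ρ+ glucose and 693, 578 and 735 in ρ+ no glucose. In ρ0 cells it read 938, 749 and 1040 in glucose and 1178, 1149 and 1320 without. The groups of each strain did not overlap, in opposite directions. It fell in ρ+ cells (log2 −0.61 ± 0.15, adjusted p = 0.00768), had a value of 0.43 in ρ0 cells (adjusted p = 0.0673), and the difference was 1.04 ± 0.22 (adjusted p = 0.00792). These signals come from a probe set marked as shared by similar transcripts. An unshared probe set of NOP58 gave −0.56 in ρ+, 0.27 in ρ0 and 0.83 for the difference, and with all its probe sets averaged the difference had an adjusted p of 0.164.

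NOP1 read 448, 470 and 447 in ρ+ glucose and 339, 312 and 285 in ρ+ no glucose. In ρ0 cells it read 267, 293 and 284 in glucose and 381, 383 and 323 without. The groups of each strain again did not overlap, and the ρ0 glucose arrays lay in the range of the ρ+ no glucose arrays or below it. It fell in ρ+ cells (log2 −0.54 ± 0.14, adjusted p = 0.0101), had a value of 0.36 in ρ0 cells (adjusted p = 0.0995), and the difference was 0.90 ± 0.20 (adjusted p = 0.013). All 3 differences held without any single array and were lost on the poly-A scale (adjusted p from 0.292 to 0.373). Their falls in ρ+ cells were not called with median centring (adjusted p = 0.0625 for RRP9, 0.0603 for NOP58 and 0.133 for NOP1), nor was that of RRP9 with quantile normalization (adjusted p = 0.0617).

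**Figure D4:**
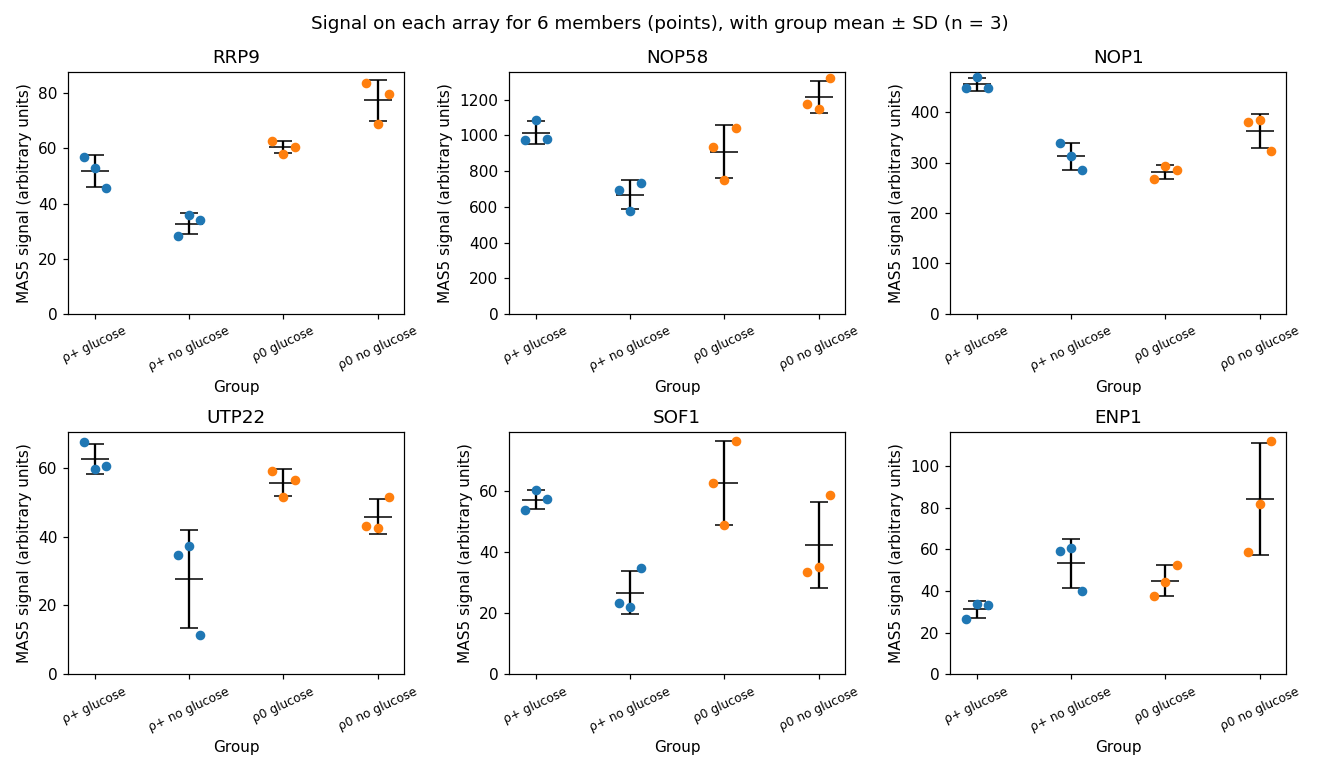
Signal in arbitrary units (vertical, from 0) is shown for 6 members on each of the 12 arrays as points, by group, with lines for the group mean and SD (n = 3). RRP9, NOP58 and NOP1 are lower without glucose in ρ+ cells and higher without glucose in ρ0 cells, UTP22 and SOF1 are lowest in ρ+ no glucose, and ENP1 is higher without glucose in both strains.

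NOP56, UTP25, UTP6 and UTP23 had differences of 0.87, 0.85, 0.82 and 0.90 that were not called (adjusted p = 0.132, 0.0717, 0.0677 and 0.0907). UTP22 had a difference of 1.01 ± 0.43 (adjusted p = 0.174), so the larger fall of UTP22 in ρ+ cells was not separated from its value in ρ0 cells. By role, the median difference was 0.87 in the U3 and Mpp10 list, 0.67 in UTP-C, 0.42 in the 3 genes with a role in both subunits or another role, 0.39 in the other small-subunit factors, 0.38 in the large-subunit factors, 0.36 in the exosome, 0.23 in UTP-B and 0.16 in UTP-A.

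Without glucose, the strains were compared directly. This comparison shares the ρ+ no glucose arrays with the withdrawal in ρ+ cells. Of the 72 members 26 were higher in ρ0 (36.1%, against 20.6% of all genes tested) and 0 were lower (9.4% of all genes), also at an unadjusted p under 0.05, where 42 were higher (29.9% and 12.7% of all genes passed that threshold upward and downward). The median member was higher by 0.54, against 0.21 for all genes. Without ρ0 no glucose replicate 3 it was higher by 0.38, and its excess over all genes fell from 0.33 to 0.19. By sign, 69 members had a positive value and 3 a negative one, where 65.1% and 34.9% of all genes did. In 38 members every ρ0 array lay above every ρ+ array and in 0 below, shares that were 31.4% and 13.5% among all genes.

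RRP9 had the largest difference, 2.31-fold (log2 1.21 ± 0.16, adjusted p = 8.37e-05). DBP10, a large-subunit helicase, was 2.21-fold higher: it read 28.9, 19.4 and 21.9 in ρ+ no glucose and 53.0, 41.3 and 67.1 in ρ0 no glucose (adjusted p = 0.00075). UTP23 was 2.00-fold higher, at 216, 140 and 207 against 105, 66.0 and 111 (adjusted p = 0.00384). UTP25 was 1.99-fold higher, at 48.0, 47.4 and 64.5 against 24.4, 26.1 and 26.8 (adjusted p = 0.00167). In each of these genes the groups did not overlap. UTP20 was 1.92-fold higher, NOP58 1.82-fold and the exosome nuclease RRP6 1.82-fold (adjusted p = 0.0048, 0.000851 and 0.00279). The mean of the 10 probe sets of UTP20 gave 0.41 on the log2 scale in place of 0.94 (adjusted p = 0.211). DBP8 was 1.80-fold higher (adjusted p = 0.00711) and RRP12 1.66-fold (adjusted p = 0.00898).

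Large-subunit factors made up 11 of the 26 calls, of 24 in their list (45.8%, against 20.6% of all genes). Other small-subunit factors made up 7, of 19 (36.8%). The large-subunit list held DBP6 (1.72-fold) and RLP7 (1.70-fold), which had fallen in ρ+ cells, beside NOC2, NOC3, NOP2, NOP7 and NOP12, which had no call there. ENP2, a processome protein, read 32.3, 30.8 and 34.0 in ρ+ no glucose and 58.8, 45.2 and 61.0 in ρ0 no glucose (1.66-fold, adjusted p = 0.00462), and had a value of −0.09 on withdrawal in ρ+ cells. UTP22 was 1.79-fold higher (adjusted p = 0.0462), and without ρ+ no glucose replicate 3 its value was 0.33 (adjusted p = 0.19). The mean of its 6 probe sets gave 0.26 (adjusted p = 0.355), and the call was lost under 16 of 24 alternatives. Of the members that fell in both strains, UTP15 differed by 0.34 ± 0.17, DBP7 by 0.09 ± 0.19 and RRS1 by −0.16 ± 0.19 (adjusted p = 0.145, 0.765 and 0.549).

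Of the 26 calls, 12 held without any single array (DBP10, DBP6, DBP8, ENP2, NOP58, RLP7, RRP12, RRP6, RRP9, UTP20, UTP23 and UTP25). The count was 17 (23.6%) without ρ+ no glucose replicate 2, ρ0 no glucose replicate 1 or ρ0 no glucose replicate 3, against 15.8%, 13.1% and 17.1% of all genes. It was 12 (16.7%) with quantile normalization and also with median centring, against 9.63% and 8.24% of all genes. On the poly-A scale it was 6 (8.33%, against 5.28%). Under these scalings 0 were lower (11.2%, 13.8% and 6.62% of all genes).

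In glucose, few of these genes were called between the strains. Of the 72 members 1 was higher in ρ0 (1.39%, against 5.0% of all genes tested) and 1 was lower (1.39%, against 1.45%), and 3 and 1 passed an unadjusted p of 0.05, as did 18.1% and 5.91% of all genes. The median member differed by 0.12, against 0.13 for all genes, and 46 members were positive and 26 negative, where 64.5% and 35.5% of all genes were. The ρ0 arrays lay wholly above the ρ+ arrays in 10 members and wholly below in 2, against 22.6% and 8.06% of all genes. DBP10 was the higher gene: it read 25.9, 26.9 and 25.4 in ρ+ and 44.2, 55.9 and 43.8 in ρ0, 1.78-fold higher (log2 0.84 ± 0.20, adjusted p = 0.0221). With a response difference of 0.31 (adjusted p = 0.544), DBP10 was higher in ρ0 cells both with and without glucose. The groups did not overlap, yet the call in glucose was lost without any 1 of the ρ+ glucose arrays or without ρ0 glucose replicate 2 (adjusted p up to 0.0799). NOP1 was the lower gene, 1.61-fold (log2 −0.69 ± 0.14, adjusted p = 0.0109), and this call was lost without ρ+ glucose replicate 2 (adjusted p = 0.0561).

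Members called in none of the 5 comparisons include RRP5, NOP13, NOP14, NOP53, RRP1, RRP3, RRP8, RRP46, UTP4, UTP10, UTP13, UTP14 and UTP21. NOP13 read between 92.6 and 168 on all arrays, and its largest value was a difference of 0.28.

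A list of 80 further genes of the same pathway was taken from outside the name rule. In ρ+ cells 34 of them fell (42.5%, against 22.3% of all genes) and 0 rose (10.5% of all genes), with a median of −0.51. In ρ0 cells 3 fell (3.75%, against 12.4%) and 4 rose (5.0%, against 4.59%), with a median of −0.06. Without glucose 36 were higher in ρ0 (45.0%, against 20.6%) and 0 lower (9.4% of all genes), with a median of 0.52. The largest falls in ρ+ cells were those of ALB1, a shuttling large-subunit factor (84.6 ± 12.1 to 28.1 ± 9.89 signal units, SD, n = 3, 3.01-fold, adjusted p = 0.00395), EMG1, a small-subunit RNA methyltransferase (218 ± 33.0 to 88.3 ± 15.96, 2.45-fold, adjusted p = 0.00039), and NIP7, a large-subunit factor (144 ± 5.22 to 61.4 ± 1.53, 2.31-fold, adjusted p = 2.3e-05). NIP7 and PNO1 were called for the difference of the responses (0.78 and 0.79, adjusted p = 0.0304 and 0.0404), and both calls were lost without any of several single arrays (adjusted p up to 0.0702 and 0.119). ERB1, a large-subunit factor, rose 1.78-fold in ρ0 cells (adjusted p = 0.0196), with adjusted p up to 0.0935 without 1 array. Without glucose NOG2 and RPF1, both large-subunit factors, were higher in ρ0 by 1.07 and 1.03 on the log2 scale (adjusted p = 0.0026 and 0.000505).

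Of 11 regulators of the regulon 10 were tested. On withdrawal in ρ+ cells 1 of them rose (10.0%, against 10.5% of all genes) and 2 fell (20.0%, against 22.3%). These shares were close to those of all genes. In ρ+ cells SFP1, the activator, fell by 0.63 (adjusted p = 0.0253) and DOT6, a repressor, rose by 0.78 (adjusted p = 0.0215). Both calls were lost without some single arrays (adjusted p up to 0.116 and 0.108). That of SFP1 was also lost with quantile normalization, median centring and scaling to the poly-A controls (adjusted p = 0.136, 0.133 and 0.185). TOR1, which encodes the TOR kinase, had a value of −1.08 (adjusted p = 0.0306) but lay above the detection level on 1 of the 3 ρ+ no glucose arrays, and the mean of its probe sets gave 0.65 (adjusted p = 0.0767), so its direction is not settled. In ρ0 cells none of the 10 was called, where 4.59% of all genes were higher and 12.4% lower. SFP1 was at −0.51 (adjusted p = 0.0902) and DOT6 at 0.53 (adjusted p = 0.138). Without glucose 2 of the 10 were higher in ρ0 (20.0%, against 20.6% of all genes) and 0 lower (9.4% of all genes). The repressor TOD6 was higher by 1.13 (adjusted p = 0.00208). TOR2, the other TOR kinase gene, was higher by 0.92 (adjusted p = 0.011, and 0.052 without ρ+ no glucose replicate 2). STB3, SCH9, FHL1, IFH1 and HMO1 passed the threshold in none of the 5 comparisons.

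Other groups of ribosome genes are set beside these for comparison. Of 8 genes for RNA polymerase I, which makes the precursor, and its factor RRN3, 4 fell in ρ+ cells (50.0%, against 22.3% of all genes). Their median was −0.74, against −0.19 for all genes. In ρ0 cells 0 were called, where 12.4% of all genes were lower and 4.59% higher (median −0.25, against −0.11). Cytosolic ribosomal protein genes were counted only where tested with a probe set of their own, so genes measured only by probe sets paired with several genes are left out. Of these 80 genes 33 fell in ρ+ cells (41.2%, against 22.3% of all genes, median −0.29). In ρ0 cells 14 fell (17.5%, against 12.4%, median −0.22). Without glucose 0 ribosomal protein genes were higher in ρ0 (20.6% of all genes) and 5 were lower (6.25%, against 9.4%, median −0.11), where 26 of 72 biogenesis factors were higher and 0 lower (median 0.54). The difference between these lists was not tested.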

How the data were processed

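The deposited table holds linear signal intensities, 1 per probe set and array, computed by the authors with MAS5, per the submitters' processing notes; no source used here gives its version or scaling target. On each array, the 2% trimmed mean over probe sets lay between 99.95 and 99.96. Poly(A)+ RNA was isolated from total RNA of equal cell numbers and labelled with biotin, per the labels' protocols. Of 9335 probe sets, 60 of them controls, 6504 were paired with 1 gene by the platform annotation, 328 with several and 2503 with none here; all 6504 identifiers matched the RefSeq table of assembly R64, where DBP4 is named HCA4. Each gene is represented by its brightest probe set on average over the arrays. No sequences or coordinates are printed, since no sequence table was used here and no build is stated for the array.

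Intensities were analysed as log2(signal + 1.50), the 10th percentile, which understates changes of dim genes. A gene was tested if a group mean exceeded 5.82, which left 5361. limma 3.58.1 under R 4.3.3 fitted 1 mean per group over all 12 arrays (lmFit, contrasts.fit, eBayes with intensity trend; 8 residual degrees of freedom); p-values are two-sided and adjusted by Benjamini-Hochberg over all genes tested, and a change is called below 0.05. Every adjusted p in the text is from limma. The number of arrays limits the precision; the median SE of a member was 0.20 for a withdrawal. The fit was also run on simulated signals with independent noise. These held no effect of scaling or of single arrays, so they cannot show how the counts depend on either. Replicates are those of the labels, which call them biological and do not tie replicate numbers to cultures.

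Members, role lists and named genes were chosen with earlier results of these data known, so counts over lists are descriptions. Named are, per comparison, the 6 largest called changes each way, the member with the smallest adjusted p of each role list, calls against the majority, UTP22, DBP8, the regulators and the 3 largest called changes of the pathway list; part of these is printed, and members outside the rule are named as further examples. Alternatives covered the pseudocount, the filter, a floor, scaling, probe sets, the intensity trend, the arrays in the fit, the replicate number and single arrays.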

Additional observations from a re-analysis of the deposited data

Results flagged for a closer look

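For 3 genes the test of the difference between the glucose responses of ρ0 and ρ+ cells passed the threshold: NOP58 (1.04 on the log2 scale, ρ0 minus ρ+), RRP9 (0.99) and NOP1 (0.90). In each, all 3 arrays without glucose lay below all 3 glucose arrays in ρ+ cells and above them in ρ0 cells. The groups of 3 arrays are too small for a test of single outlying arrays.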

How the results depend on the processing

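The counts of called members moved with the scaling of the arrays and with single arrays. After quantile normalization 14 fell and 2 rose in ρ+ cells, 8 rose in ρ0 cells, 0 were higher in ρ0 in glucose and 12 without glucose. After median centring these counts were 10 and 2, 10, 0 and 12. On the poly-A scale 4 fell and 0 rose in ρ+ cells, 0 rose in ρ0 cells, 0 were lower in ρ0 in glucose, 6 were higher without glucose and 0 had a different response. The median of all genes in ρ+ cells moved from −0.19 to −0.07, 0.02 and −0.06 under the 3 scalings, and among all genes 1193 lower and 561 higher calls became 760 and 644, 548 and 807, and 287 and 439. Rises in ρ0 cells numbered 1 with only the groups compared in the fit (1.39%, against 1.6% of all genes). Without both arrays with low hybridization controls they numbered 3 (4.17%, against 4.23%). In that setting 0 members were higher in glucose (4.48% of all genes). Leaving out 1 array at a time gave 17 to 31 falls and 0 to 1 rises in ρ+ cells, 2 to 8 falls and 2 to 5 rises in ρ0 cells, 0 to 1 calls each way in glucose, 17 to 32 higher and 0 lower without glucose, and 3 to 4 response differences. The count of falls in ρ+ cells was 17 without ρ+ glucose replicate 2 (23.6%, against 13.9% of all genes). In ρ0 cells 2 members rose without ρ0 glucose replicate 3 (2.78%, against 2.05%). Without ρ0 glucose replicate 2 or any 1 ρ0 no glucose array 3 rose (4.17%, against 6.62%, 2.41%, 2.84% and 5.06% in turn). Falls in ρ0 cells numbered 6 without ρ0 glucose replicate 2 (8.33%, against 14.3%) and 8 without ρ0 no glucose replicate 3 (11.1%, against 13.8%). In deviations from group means, same-numbered arrays of the glucose and no glucose groups correlated at 0.025, −0.025 and 0.107 in ρ+ cells. The highest value with another number was 0.057, 0.047 and −0.041. In ρ0 cells the values were 0, 0.16 and 0.52, against 0.025, 0.279 and −0.215. Only replicate 3 correlated best with its own number, so these values do not settle whether the numbers mark a pairing. With the replicate block 6 members fell in ρ0 cells (8.33%, against 15.9% of all genes). A different response was then called for 5 members, all higher in ρ0 (6.94%, against 2.84%). Among the 38 named calls of members, 0 changed direction, but only 11 kept their call under all alternatives. When single arrays were left out 25 kept it throughout, and on the poly-A scale 25 lost it. Outside the members, the value of TOR1 in ρ+ cells went from −1.08 to 0.65 with the mean of its probe sets and was then not called. The difference of the responses needs all 4 groups, so no fit of fewer groups was run for it. The cause of these changes was not tested. Signal over background limited 1 member, RRP36, on 1 array.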
